A study of Mus musculus with 48 samples.

Results

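The 173 genes described here are those that primary mouse CD4+ T cells had already raised to at least 50% of their full response at a low dose of stimulating antibody. They were chosen among 10219 genes from the levels in libraries without PD-1 engagement. A gene was kept if its mean at 10000 ng/ml anti-CD3 was at least 5 RPM and at least 2-fold above its base, with 1 RPM added to both, the base being the mean of the libraries at 0 and 10 ng/ml. It also had to cover at least 50% of that rise at 100 ng/ml. Of the 931 genes that met the level and fold criteria, 755 stayed under 50% and serve as the other induced genes, and Egr1, Egr3 and Nr4a1 were left out by name. Just inside the threshold were Mrps10 at 50.4%, Gm5844 at 50.3% and Dot1l at 50.03% of the rise, and just outside it Marcksl1 at 49.9986%, Per2 at 49.8% and Gm5380 at 49.7%. The values that chose the genes are given as a description. Where a comparison shares libraries with the choice, this is said beside it and nothing is read from its counts.

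The study measured the 5′ ends of capped RNA (CAGE) in T cells given a dose series of receptor stimulation with or without engagement of PD-1. Primary CD4+ T cells of BALB/cCrSlc mice received 2C11, an antibody to the CD3 chains of the T cell receptor, at 0, 10, 100, 1000 or 10000 ng/ml, in 5 engaged and 5 unengaged groups. Cells of DO11.10, a T cell hybridoma of BALB/c x AKR/J origin whose receptor recognises an ovalbumin peptide (pOVA), received 0, 1, 10, 100, 1000 or 10000 nM pOVA, in 6 engaged and 6 unengaged groups. Each group held 2 libraries, or 3 at 10000. How PD-1 was engaged, how long the cells were stimulated and whether libraries came from separate cultures or animals are not given in the sources used here, so p-values measure the spread between these samples. The hybridoma is a single fused line. Levels are in RPM, the authors' scaling of tags to the total of each library, summed over the tag clusters of a gene.

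When a T cell receptor binds its ligand, kinases next to CD3 start calcium, MAP kinase and NF-kB signalling, and these lead to new transcription within a short time. PD-1, encoded by Pdcd1, is a receptor that activated T cells display. On binding PD-L1 or PD-L2 it recruits phosphatases that act on signalling next to the T cell receptor and on CD28 costimulation.

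Promoter sequence is shown for genes among those with the largest rise whose window held 1 of the motifs searched, so that the letters before their annotated start can be read. Each window runs from 250 bases before to 50 bases after the RefSeq start in GRCm38.p6, is read 5′ to 3′ on the gene's strand, and has the motif matches in capitals. In Tnf, the gene of a proinflammatory cytokine (chr17:35201958-35202257, minus strand), the letters TGGAAA of an NFAT core lie on the opposite strand at -181 and TATAAA lies at -29. In Fosl2, which encodes an AP-1 subunit (chr5:32136222-32136521, plus strand), overlapping matches to an NF-kB motif lie at -182 and -181 and GCGNGGGCG, an EGR motif, at -79. In Srxn1, which encodes the antioxidant enzyme sulfiredoxin (chr2:152105274-152105573, plus strand), TGANTCA, the AP-1 motif, lies at -102 and -45.
Tnf: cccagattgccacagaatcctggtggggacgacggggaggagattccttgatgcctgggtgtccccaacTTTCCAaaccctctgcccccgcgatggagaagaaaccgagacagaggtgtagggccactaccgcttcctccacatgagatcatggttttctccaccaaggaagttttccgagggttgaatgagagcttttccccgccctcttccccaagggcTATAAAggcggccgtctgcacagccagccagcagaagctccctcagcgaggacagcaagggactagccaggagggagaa
Fosl2: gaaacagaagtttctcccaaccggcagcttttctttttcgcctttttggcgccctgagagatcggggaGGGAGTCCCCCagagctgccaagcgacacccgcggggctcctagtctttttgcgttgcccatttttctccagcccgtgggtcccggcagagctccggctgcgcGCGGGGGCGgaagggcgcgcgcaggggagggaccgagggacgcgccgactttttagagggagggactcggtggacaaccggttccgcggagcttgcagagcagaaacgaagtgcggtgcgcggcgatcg
Srxn1: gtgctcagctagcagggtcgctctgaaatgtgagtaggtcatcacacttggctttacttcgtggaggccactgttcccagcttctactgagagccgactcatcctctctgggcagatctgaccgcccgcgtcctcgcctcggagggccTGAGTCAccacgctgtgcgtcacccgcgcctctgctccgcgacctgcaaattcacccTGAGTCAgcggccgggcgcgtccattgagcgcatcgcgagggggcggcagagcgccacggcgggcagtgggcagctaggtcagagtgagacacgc
Those letters were not in the windows of Plk3, Dusp6 and Pdcd1, the others looked at. The deposited tag clusters are in another build, mm9, and were matched to the windows by symbol alone, so the 2 sets of coordinates cannot be set beside each other. These clusters were narrow or broad. The single cluster of Tnf spans chr17:35338950-35338953 on the minus strand and that of Srxn1 chr2:151931464-151931469 on the plus strand, while Pdcd1 has one at chr1:95949130-95949158 on the minus strand. Fosl2 has 2 clusters, at chr5:32438215-32438258 and chr5:32438835-32438871 on the plus strand, with 60.1% and 39.9% of its tags.

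Of the 173 genes, 130 had at least 1 promoter window, 167 windows in all. On both strands, TATAAA was found in 9.58% of these windows and in 6.50% of the 8820 windows of all CD4 genes. CACGTG, an E-box, was found in 16.8% against 10.7%, and TGGAAA in 19.2% against 16.0%. For the NF-kB motif the shares were 7.78% and 5.17%, for TGANTCA 5.39% and 4.48%, for TGACGTCA (a CRE) 4.19% and 3.40%, for the CArG box 1.80% and 1.18%, and for GCGNGGGCG 10.2% and 10.6%. The windows of the other induced genes had CACGTG in 17.1%. A match describes letters in the window alone.

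The libraries held 4.42 to 22.8 M tags in CD4 cells and 7.79 to 19.7 M in the hybridoma. All 12 T cell markers were listed in CD4 cells, at a sum of 4161 to 6326 RPM. In the hybridoma 11 of 12 were, without Cd4, at 1532 to 2337 RPM. Of the other cell types, B cell markers stood out in CD4 libraries (13 of 14 listed, all but Cr2, at 549 to 1243 RPM), against 1 of 10 myeloid (Cst3), 2 of 7 NK and 1 of 2 CD8 T cell markers (Cd8b1 at 9.05 to 16.2 RPM). In these bulk samples, fewer cells of a type and less RNA per cell cannot be told apart. In the hybridoma, both libraries of number 2 at 0 nM stand apart, at 990 RPM with and 1222 RPM without engagement, against 88.5 to 290 RPM in the others. Gaps of at least 5-fold between libraries of 1 group occurred in 5 of the 173 genes, Polr2l and 4 predicted genes, and none of these was called changed at 1000 ng/ml.

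The first comparison sets engaged against unengaged CD4 cells at 1000 ng/ml, a dose that took no part in the choice of genes. Of the 173 genes 86 fell with engagement, and none rose. Among those that fell were the AP-1 factor Fosl2, the Th1 factor Tbx21, the macrophage growth factor Csf1 and the cyclin Ccnd2. Also lower were the RNA methyltransferase Nsun2, the translation initiation factor Eif3b, the proteasome activator Psme3 and the ER protein Nomo1. In all, 86 of 173 genes fell (adjusted p under 0.05, limma), and 19.4% of all 10217 genes tested and 35.4% of the other induced genes did. No gene of the 173 rose by adjusted p, while 3.3% of all genes did. None rose at an unadjusted p under 0.05 (limma), while 5.96% of all genes did. DESeq2 called none higher either, and edgeR 1, Alg13. The median log2 difference was -0.46 over the 173 genes, -0.34 over the other induced genes and -0.17 over all genes, the shift of the whole table. Both engaged libraries lay below both unengaged ones for 143 genes (82.7%), and this held for 52.9% of all genes. Both lay above them for 3 genes, against 14.5% of all genes.

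The values by library show the pattern. Fosl2 was at 55.4 and 47.0 RPM in engaged cells, against 87.6 and 92.2 RPM in unengaged cells. Tbx21 was at 97.6 and 101 RPM in engaged cells, against 160 and 185 RPM in unengaged cells. Csf1 was at 11.9 and 11.1 RPM in engaged cells, against 19.3 and 22.9 RPM in unengaged cells. In each of these genes the 2 pairs of libraries lie apart, and the gap between them is wider than the gap within either. The log2 differences, engaged minus unengaged on the log2(RPM + 1) scale, were -0.80 (SE 0.135, adjusted p = 8.18e-04) for Fosl2, -0.79 (SE 0.0994, adjusted p = 1.31e-04) for Tbx21 and -0.82 (SE 0.135, adjusted p = 6.98e-04) for Csf1.

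The 10 named genes with the lowest difference lie between -1.49 and -1.01. Nomo1 was at 20.8 and 21.4 RPM in engaged cells, against 55.4 and 67.4 RPM in unengaged cells, the lowest of them (log2 difference -1.49, SE 0.192, adjusted p = 1.47e-04). Nsun2 was at 73.6 and 76.0 RPM in engaged cells, against 178 and 204 RPM in unengaged cells (-1.34). Psme3 was at 148 and 162 RPM in engaged cells, against 369 and 360 RPM in unengaged cells (-1.23). Eif3b showed a wider spread, at 116 and 134 RPM in engaged cells, against 351 and 268 RPM in unengaged cells (-1.29), and no library of 1 group reached the other. Also lower were Gfod1 (-1.20), the JNK scaffold Sh3rf1 (-1.06), Srgap3 (-1.05), the EGF receptor inhibitor Errfi1 (-1.05) and the mitochondrial kinase anchor Akap1 (-1.01). Polr2l, a subunit shared by the nuclear RNA polymerases, was not called (-1.20, SE 0.791, adjusted p = 0.284), with 115 and 61.6 RPM in engaged cells and 106 and 360 RPM in unengaged cells.

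At the other end, 5 named genes had a difference above 0 and were not called. The N-glycosylation gene Alg13 was at 20.2 and 23.6 RPM in engaged cells, against 17.1 and 19.2 RPM in unengaged cells (log2 difference 0.26, adjusted p = 0.287; edgeR and quantile normalization call it higher). Pros1, the gene of the anticoagulant protein S, was at 28.8 and 24.2 RPM in engaged cells, against 24.2 and 22.8 RPM in unengaged cells. Fam162a was at 182 and 167 RPM in engaged cells, against 167 RPM in both unengaged libraries. The groups of Pros1 and Fam162a touch or overlap at this dose. Timm8a1, a chaperone of mitochondrial import, and Gpr65, a proton-sensing receptor, both had a log2 difference of 0.02.

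**Figure D1:**
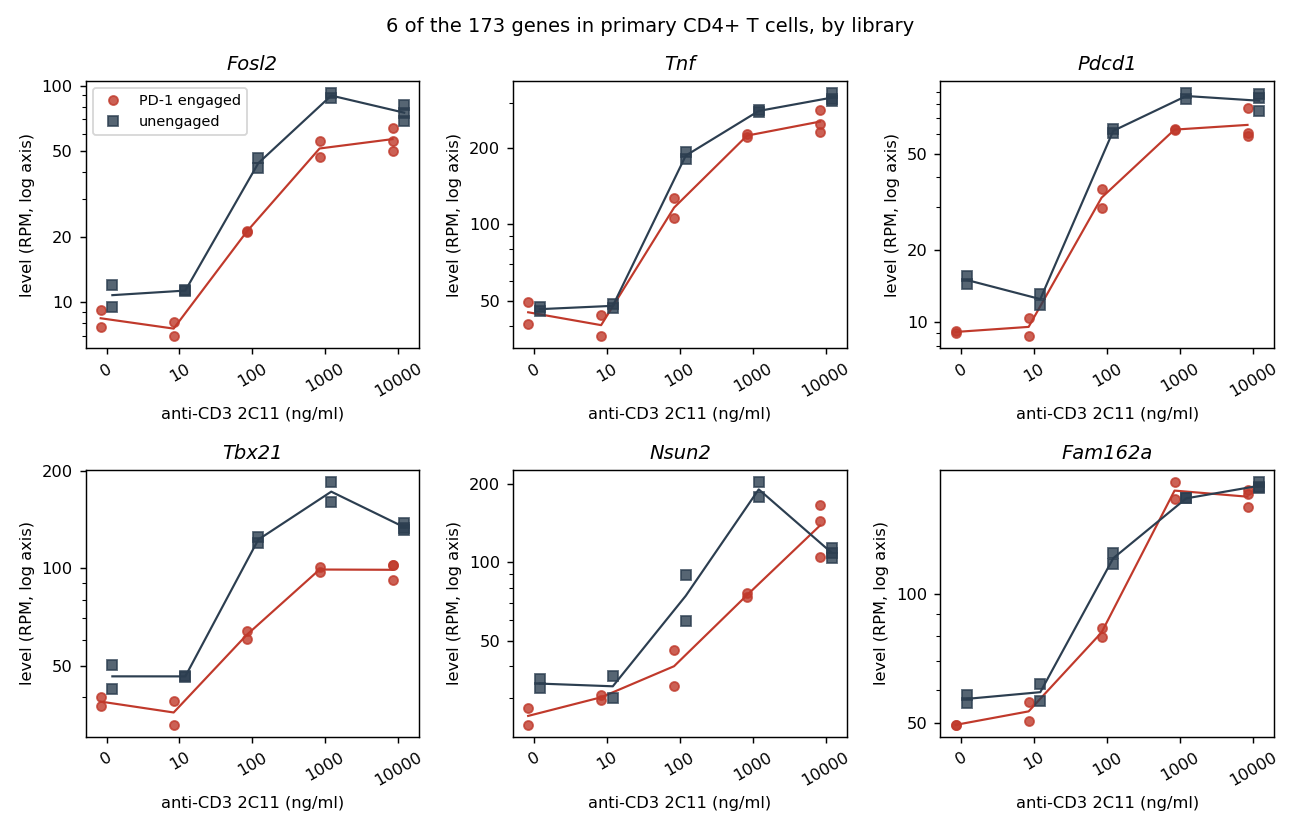
Level of 6 genes in each CD4 library (RPM, log axis) by dose of anti-CD3 2C11 (ng/ml), red circles with and dark squares without PD-1 engagement, lines through the means of 2 or 3 libraries. Fosl2, Tnf, Pdcd1, Tbx21 and Nsun2 have engaged libraries below the unengaged ones at 100 and 1000 ng/ml, while Fam162a does so at 100 ng/ml and has engaged libraries at 182 and 167 RPM, against 167 RPM, at 1000 ng/ml.

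By role, 34 of the 173 genes are on 1 of 9 lists of T cell activation genes, and 139 are on none. All 3 transcription factors fell: beside Fosl2 and Tbx21 the interferon regulatory factor Irf8, at 194 and 203 RPM in engaged cells, against 341 and 413 RPM in unengaged cells (log2 difference -0.91, adjusted p = 0.00601). Over the whole list of transcription factors of activation, 29 of 47 fell and none rose. The secreted and TNF family ligands fell as well, Tnf, Csf1 and Tnfsf11, the gene of RANKL, and over that list 21 of 31 fell and none rose. Tnf was at 220 and 225 RPM in engaged cells, against 275 and 282 RPM in unengaged cells (-0.32, adjusted p = 0.0445). That call was lost with edgeR (adjusted p = 0.330), DESeq2 (0.367) and quantile normalization (0.179). Tnfsf11 was at 7.47 and 7.37 RPM in engaged cells, against 15.2 and 13.9 RPM in unengaged cells (-0.89).

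Of 8 surface molecules 4 fell. Tnfrsf9, the costimulatory receptor 4-1BB, was at 168 and 169 RPM in engaged cells, against 227 and 252 RPM in unengaged cells (log2 difference -0.50, adjusted p = 0.00516). Pdcd1, the gene of PD-1 itself, was at 62.9 and 62.6 RPM in engaged cells, against 88.8 and 84.1 RPM in unengaged cells (-0.46, adjusted p = 0.0153). Cd274, which encodes PD-L1, was at 92.2 and 96.1 RPM in engaged cells, against 121 and 119 RPM in unengaged cells (-0.35). Cd200, a ligand of an inhibitory receptor on myeloid cells, was at -0.51. With quantile normalization Pdcd1 (adjusted p = 0.175), Cd274 (0.161) and Cd200 (0.166) are not called, while Tnfrsf9 is not called with edgeR (0.0559). The other 4 were not called: the early activation antigen Cd69 at -0.24, the inhibitory receptor Btla at -0.40, the oxysterol receptor Gpr183 at -0.48 and Gpr65. Over the list of surface molecules 13 of 47 fell and 1 rose.

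Of 6 feedback regulators of receptor signals 4 fell. Dusp4 was at 50.5 and 47.0 RPM in engaged cells, against 82.4 and 78.2 RPM in unengaged cells, and Dusp6, like Dusp4 a phosphatase of MAP kinases, was at 36.4 and 34.9 RPM in engaged cells, against 56.2 and 51.5 RPM in unengaged cells. The log2 differences were -0.71 and -0.58, and Dusp6 is not called with quantile normalization (adjusted p = 0.144). Spred1, an inhibitor of Ras signalling, was at -0.76, and Nfkbid, a nuclear IkB protein, at -0.50. Dusp2, another such phosphatase, was at 171 and 164 RPM in engaged cells, against 190 and 179 RPM in unengaged cells (-0.14, adjusted p = 0.323), and the ubiquitin ligase Siah2 was not called either (-0.34). Over the list 25 of 47 fell and 1 rose.

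Metabolic genes fell in 5 of 6 cases: the glucose transporter Slc2a1 (log2 difference -0.48), the glutamine transporter Slc1a5 (-0.64), the folate enzymes Mthfd1 (-0.58) and Mthfd1l (-0.47) and the fatty acid synthase Fasn (-0.57), with the purine enzyme Atic at -0.30 (adjusted p = 0.105). Slc1a5 was at 194 and 202 RPM in engaged cells, against 283 and 336 RPM in unengaged cells. Slc2a1, Mthfd1, Mthfd1l and Fasn are not called with quantile normalization (adjusted p = 0.0935, 0.139, 0.0906 and 0.0503). Over the list 26 of 46 fell and 1 rose. All 3 genes of translation and folding fell, Eif3b and the chaperones Hsph1 (-0.79) and Hyou1 (-0.64), and 19 of 38 on that list fell and none rose.

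Ccnd2, the cyclin D2 gene, was at 41.2 and 46.6 RPM in engaged cells, against 77.6 and 88.7 RPM in unengaged cells (log2 difference -0.91), and over the cell cycle list 13 of 39 fell and none rose. Bcl2l1, which encodes the survival protein BCL-xL, fell (-0.48), and the kinase gene Plk3 was at 105 and 118 RPM in engaged cells, against 139 and 140 RPM in unengaged cells, which was not called (-0.33, adjusted p = 0.150). The survival and death list had 11 of 30 lower and 2 higher. Of 54 genes on the ribosome biogenesis list, 50 are among the other induced genes and 2 among the 173. Polr1a, the large subunit of RNA polymerase I, fell (-0.67) and Surf6 was not called (-0.39, adjusted p = 0.0544). The list is not complete, so these counts describe the list and not the class. Urb2, Utp18 and Mdn1, named after their values were seen, are of this class and among the 173 but not on it. Over that list 32 of 54 fell and 1 rose. None of 26 resting T cell genes is among the 173, and 3 of these 26 fell and 3 rose.

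These calls depend on scaling and on single libraries. Of the 86 genes, 27 stayed lower and called under each of the 15 alternatives to the scaling, filter, tool, block, covariate or set of libraries, 13 of them named here: Ccnd2, Csf1, Dusp4, Eif3b, Fosl2, Hsph1, Hyou1, Nab2, Nomo1, Nsun2, Psme3, Slc1a5 and Tbx21. Nab2, a co-repressor of EGR factors, was at 51.6 and 44.4 RPM in engaged cells, against 83.6 and 81.7 RPM in unengaged cells. Cd200, Cd274, Kdm2b, Mthfd1, Pdcd1, Tnf and Tnfsf11 lost their call whichever of the 4 libraries at 1000 ng/ml was left out. Akap1, Bcl2l1, Dusp6, Errfi1, Fasn, Gfod1, Irf8, Orai1, Polr1a, Sh3rf1, Slc2a1, Spred1, Srgap3, Srxn1 and Tnfrsf9 lost it without at least 1 of them. Quantile normalization called 43 of the 173 genes lower, without unengaged library 2 at 1000 ng/ml 43 were, and without engaged library 1 at 1000 ng/ml 47 were. The genes were also lower with engagement at 0 ng/ml, by a median of -0.29, as were all genes, by -0.23, and the other induced genes, by -0.11. This difference at 0 ng/ml, which the choice of genes used in part, was then subtracted. The median at 1000 ng/ml was -0.19 over the 173 genes, -0.22 over the other induced genes and 0.06 over all genes. By this median the 173 genes were no lower than the other induced genes. No gene of the 173 was then called by limma, against 0.0196% of all genes lower, and at an unadjusted p under 0.05 30 were lower and 3 higher, against 4.83% and 7.39% of all genes. Among the named genes called at 1000 ng/ml, 4 changed sign: Pdcd1 (0.20), Bcl2l1 (0.11), Kdm2b (0.05) and Cd274 (0.03).

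Properties of the libraries moved with engagement too. At 1000 ng/ml the clusters held 84.8 and 85.7% of tags in engaged libraries, against 85.1 and 86.3% in unengaged libraries, and at 0 ng/ml 83.5% in both engaged libraries, against 85.6 and 86.2% in unengaged libraries. The 13 B cell markers summed to 869 and 1087 RPM in engaged libraries at 1000 ng/ml, against 549 and 707 RPM in unengaged libraries. With the cluster share as a covariate 89 of the 173 genes were lower, and with the B cell marker sum 123. What these properties contribute to the result beyond those fits was not tested.

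**Figure D2:**
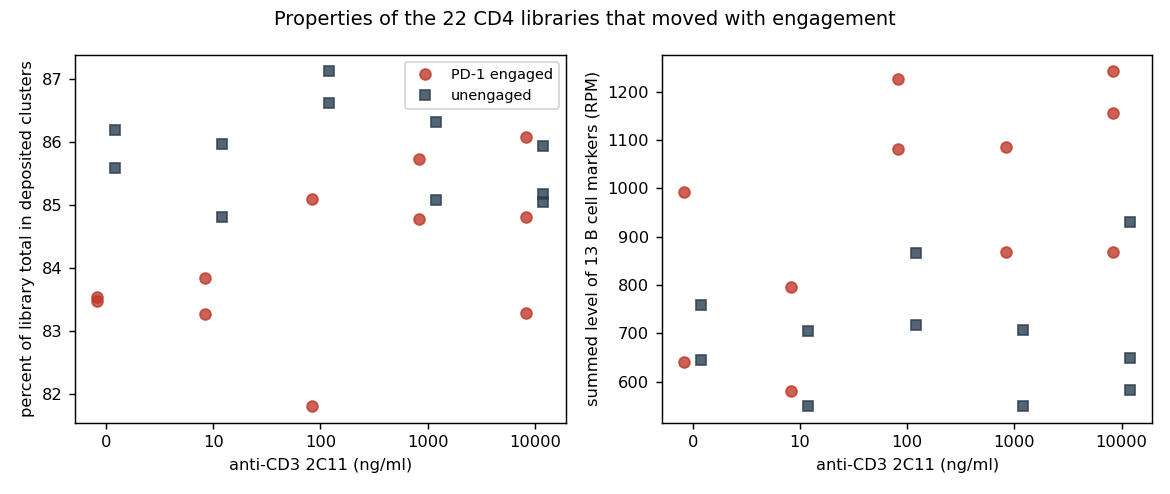
Left, percent of each CD4 library's tags in the deposited clusters, and right, summed level of 13 B cell markers (RPM), by dose of anti-CD3 2C11 (ng/ml), red circles with and dark squares without PD-1 engagement, 1 point per library. At 1000 ng/ml the B cell marker sum is 869 and 1087 RPM in engaged libraries, against 549 and 707 RPM in unengaged libraries.

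Inhibition by dose is given for CD4 cells as a description, since unengaged libraries at 0, 10, 100 and 10000 ng/ml chose the genes. A gene chosen for a high unengaged level at 100 ng/ml is by that choice further above its engaged level there. The choice also favours a low unengaged level at 10000 ng/ml, which lowers inhibition at that dose. The fall of inhibition from 100 to 10000 ng/ml is thus shaped by the choice at both doses. Inhibition is the percent of the unengaged rise over base that is missing in engaged cells at the same dose. Its median over the 173 genes was 73.1% at 100 ng/ml (quartiles 58.5 and 87.1%), 40.5% at 1000 ng/ml (30.3 and 54.3%, 172 genes, since Gm14934 had no rise there) and 8.21% at 10000 ng/ml (-8.88 and 22.6%). Measured from the engaged cells' own base the medians were 59.3, 35.7 and 1.07%. Among the other induced genes they were 53.4, 32.2 and 17.2% from the unengaged base. Inhibition was at least 50% for 149 genes at 100 ng/ml, for 58 at 1000 ng/ml and for 3 at 10000 ng/ml. These shares were 86.1, 33.7 and 1.73%, against 54.4, 16.2 and 6.23% of the other induced genes. Inhibition was below 0 for 3, 7 and 62 of the chosen genes at these doses. Among the other induced genes it was below 0 for 94 of 737, 105 of 753 and 116 of 755.

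Single genes differ in how this runs over dose. Fosl2 had an inhibition of 69.2, 49.1 and 28.7% at 100, 1000 and 10000 ng/ml, and Tbx21 of 79.2, 58.1 and 40.0%. Tnf had 50.2, 24.1 and 22.9%, and Pdcd1 60.5, 32.6 and 24.7%. Ccnd2 had 120, 76.9 and 68.2%, and Tnfsf11 92.5, 59.8 and 55.4%. All these values are measured from the unengaged base, and Ccnd2 was already lower with engagement at 0 ng/ml (log2 difference -0.62). From the engaged cells' own base, the highest inhibition of any of the 173 genes at 10000 ng/ml was 49.1%. In contrast, Eif3b, Psme3, Nsun2 and Nomo1 turned negative at 10000 ng/ml, where Nsun2 was at 105, 166 and 145 RPM in engaged cells, against 104, 114 and 108 RPM in unengaged cells. Eif3b was at 146, 328 and 304 RPM in engaged cells at that dose, against 133, 157 and 143 RPM in unengaged cells, so engaged library 1 lay among the unengaged ones and the other two above them.

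The same levels show the shape of the unengaged curve. For 148 of the 173 genes the unengaged mean was higher at 1000 than at 10000 ng/ml. The rise at 1000 ng/ml was a median of 122% of that at 10000 ng/ml, against 97.4% in the other induced genes. The choice of genes divided by the rise at 10000 ng/ml and so favoured genes that were low there. Nothing is read from this count or these medians. Nsun2 was at 178 and 204 RPM at 1000 ng/ml without engagement, and Psme3 at 369 and 360 RPM, against 163, 209 and 175 RPM at 10000 ng/ml. Under engagement 27 genes were higher at 1000 than at 10000 ng/ml. The choice of genes shaped the unengaged count but used no engaged library, so the counts are not set against each other.

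By dose, the median log2 difference of the 173 genes was -0.29 at 0, -0.21 at 10, -0.68 at 100, -0.46 at 1000 and -0.08 at 10000 ng/ml, and that of all genes was -0.23, -0.13, -0.29, -0.17 and 0.02. Among the 173 genes 30 were lower by adjusted p at 0 ng/ml, 5 at 10, 139 at 100 and 14 at 10000 ng/ml. The shares over all genes were 13.6, 0.705, 37.3 and 2.58%, and nothing is read from these counts because the choice of genes used the same libraries. At 10000 ng/ml 6 of the 173 were higher, against 5.89% of all genes.

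**Figure D3:**
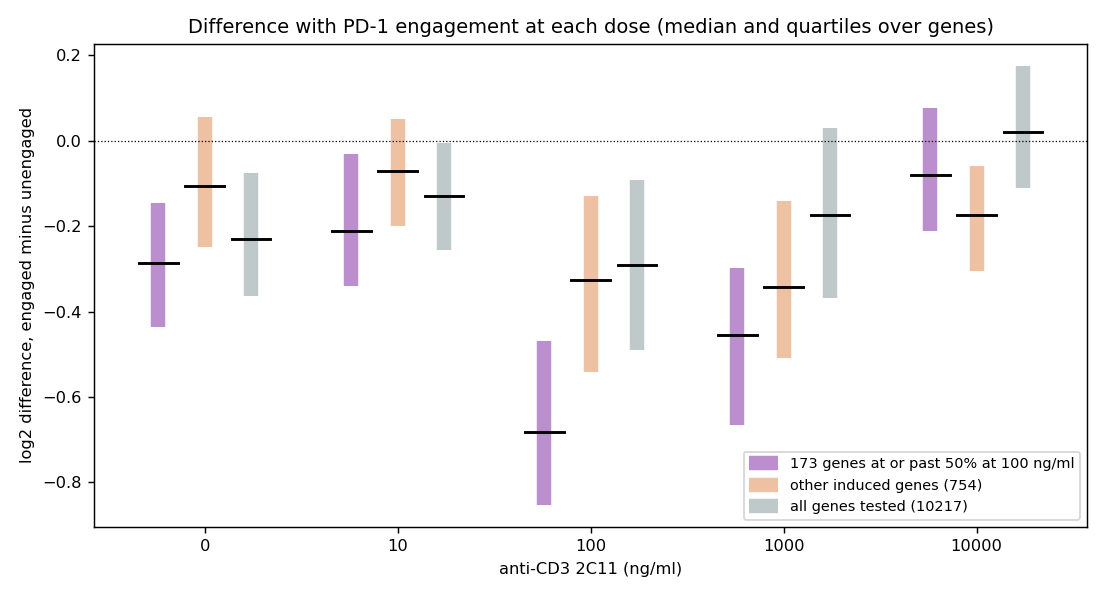
Log2 difference, engaged minus unengaged, by dose of anti-CD3 2C11 (ng/ml) for the 173 genes, the other induced genes and all genes tested in CD4 cells, bars from the first to the third quartile over genes and black lines at the medians. At 100 ng/ml the medians are -0.68, -0.33 and -0.29, and at 10000 ng/ml -0.08, -0.17 and 0.02. At 1000 ng/ml, the dose not used to choose the genes, they are -0.46, -0.34 and -0.17.

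**Figure D4:**
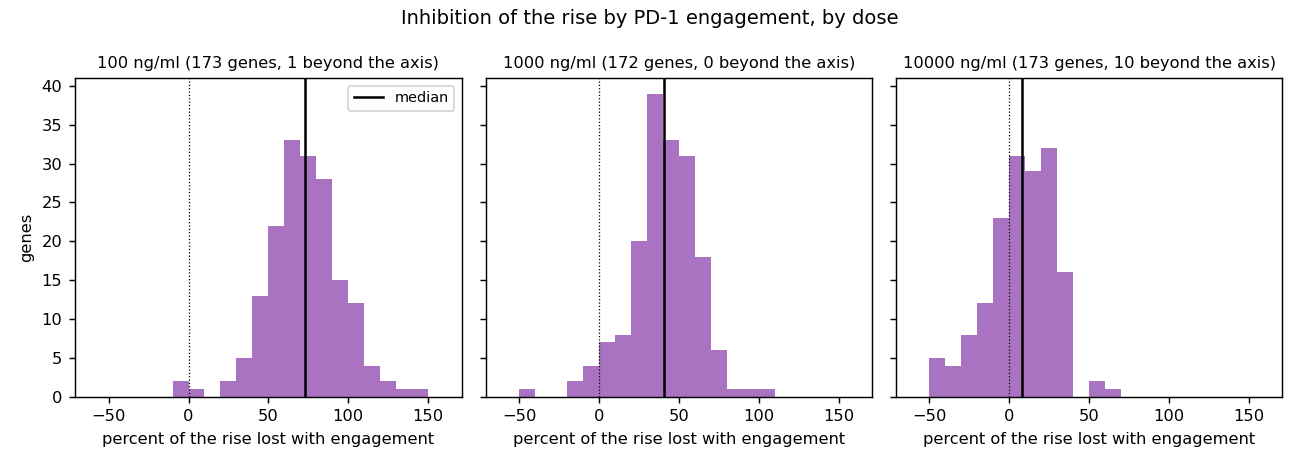
Number of the chosen genes by the percent of the unengaged rise that was missing in engaged CD4 cells at 100, 1000 and 10000 ng/ml, black lines at the medians of 73.1, 40.5 and 8.21%. Values under 0 are genes whose engaged mean was the higher one.

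The second comparison asks how far the 173 genes rose when PD-1 was engaged throughout, a series of engaged libraries that took no part in the choice. Each dose was tested against the mean of the engaged groups at 0 and 10 ng/ml. At 100 ng/ml 128 of 173 genes rose (74%), against 13.6% of all genes and 64.3% of the other induced genes. None of the 173 fell by adjusted p, against 8.83% of all genes. None fell at an unadjusted p under 0.05 (limma) either, against 15.1% of all genes. At 1000 ng/ml 168 rose (97.1%), against 32.5% of all genes and 95.2% of the other induced genes. At 10000 ng/ml 168 rose (97.1%), against 40.8% of all genes and 97.7% of the other induced genes. The genes were chosen for a rise without engagement, so the contrast with all genes follows in part from that choice. The median log2 rise was 0.58, 1.27 and 1.47 at these doses, and in the other induced genes 0.46, 1.27 and 1.39. The 5 not called at 1000 and at 10000 ng/ml were Gm14410, Gm14934, Gm6793, Gm9840 and Nutf2-ps1, named after their values were seen.

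At 100 ng/ml the largest called rises in named genes were those of the centrosomal gene Tacc2, Plk3, Pdcd1 and Nab2. Pdcd1 was at 29.8 and 35.8 RPM in engaged cells at 100 ng/ml, against 9.04, 9.22, 8.77 and 10.4 RPM in engaged cells at 0 and 10 ng/ml (log2 rise 1.70, SE 0.109, adjusted p = 3.13e-09). Tnf was at 106 and 126 RPM, against 40.7, 49.5, 36.3 and 44.0 RPM (1.43, SE 0.0962, adjusted p = 6.08e-09). In both genes no stimulated library reached down to those at 0 and 10 ng/ml. Fosl2 rose by 1.31, Dusp6 by 1.29, Dusp2 by 1.05, Tnfrsf9 by 1.02 and Cd69 by 0.96.

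Other genes were not called at 100 ng/ml under engagement. Csf1 was at 4.97 and 5.06 RPM, against 4.99, 4.30, 4.58 and 4.54 RPM in engaged cells at 0 and 10 ng/ml (log2 difference 0.11, adjusted p = 0.556), and at 11.9 and 11.1 RPM at 1000 ng/ml, where it was called (1.16, adjusted p = 6.93e-08). Slc2a1 stood at 0.16 (adjusted p = 0.275) and Ccnd2 at 0.17 (0.461) at 100 ng/ml, and at 0.83 and 0.89 at 1000 ng/ml, called in both. Eif3b (0.52), Psme3 (0.45), Errfi1 (0.57), Gpr183 (0.43), Pros1 (0.23) and Surf6 (0.28) were not called at 100 ng/ml either.

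As a share of the engaged rise at 10000 ng/ml, the engaged rise at 100 ng/ml had a median of 25.9% over the 173 genes, and 19 of 173 reached 50%. In the other induced genes the median was 21.2%, and 27 of 755 reached 50%. Without engagement the medians were 61.6 and 32.1%, which the choice of genes fixes. Dusp2 reached 77.8% under engagement and Cd69 56.2%, while Csf1 reached 4.53%, Psme3 9.75% and Eif3b 10.4%. At 1000 ng/ml the engaged rise was a median of 82.0% of that at 10000 ng/ml, and 83.2% in the other induced genes. The engaged mean at 1000 ng/ml lay above the unengaged mean at 100 ng/ml for 108 of the 173 genes. The choice of genes used that unengaged mean, so nothing is read from this count.

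From 100 to 10000 ng/ml within engaged cells, 156 of 173 genes rose further, against 32.3% of all genes, and 93.6% of the other induced genes did, with none of the 173 lower (limma, 1 at an unadjusted p under 0.05, against 22.8% of all genes), against 20.5% of all genes by adjusted p. The median log2 difference was 0.91 over the 173 genes and 0.97 over the other induced genes. Fosl2 was at 64.0, 55.6 and 50.1 RPM at 10000 ng/ml, against 21.0 and 21.2 RPM at 100 ng/ml (1.37, adjusted p = 4.15e-08). Eif3b was at 146, 328 and 304 RPM, against 55.9 and 83.2 RPM (1.83, adjusted p = 4.07e-06). Dusp2 and Btla were not called. The 13 B cell markers summed to 1081 and 1226 RPM in engaged libraries at 100 ng/ml, against 641 and 992 RPM in engaged libraries at 0 ng/ml. With that sum as a covariate 76 of 173 genes were called higher at 100 ng/ml under engagement, and its part in the result beyond that fit was not tested.

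The third comparison follows the genes into the DO11.10 hybridoma, where 161 of the 173 were listed, without Tbx21, Srgap3, Errfi1 and Pros1 among the genes named here. At 100 nM pOVA without engagement 28 of 161 rose, against 2.84% of all 10094 genes and 10.8% of the other induced genes, and none fell (limma, 5 at an unadjusted p under 0.05, against 15.5% of all genes), against 3.19% of all genes by adjusted p. At 10000 nM 47 rose, against 8.09% of all genes and 30.1% of the other induced genes, and 10 fell, against 20.8%. All 28 that rose at 100 nM were also higher at 10000 nM. Both doses were set against the same 2 libraries at 0 nM, so nothing is read from this overlap. The median log2 difference of the 161 genes at 10000 nM was 0.05, of the other induced genes 0.18 and of all genes -0.18. Without unengaged library 1 at 100 nM 18 genes were called at that dose, and without both libraries of number 2 at 0 nM 27 were at 100 nM and 47 at 10000 nM.

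The largest rises among the named genes in the hybridoma included those of Tnfrsf9, Nab2 and Srxn1. Tnfrsf9 was at 155, 160 and 132 RPM at 10000 nM, against 2.41 and 3.30 RPM at 0 nM (log2 rise 5.29, SE 0.174, adjusted p = 7.55e-14). Nab2 was at 113, 102 and 111 RPM at 10000 nM, against 0.46 and 4.72 RPM at 0 nM (5.24, SE 0.408), so the libraries at 0 nM differ widely while both lie far below. Srxn1 was at 1023, 1009 and 895 RPM at 10000 nM, against 61.8 and 52.7 RPM at 0 nM (4.07). Cd274 rose by 3.43, Plk3 by 2.91, Tnf by 2.90, Fosl2 by 2.87, Dusp4 by 2.68 and Tnfsf11 by 2.57. Surface, cytokine and feedback genes rose in 6 of 8, 3 of 3 and 3 of 6 cases.

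Of the 6 genes on the metabolism list none rose and 2 fell, Atic (-0.52) and Mthfd1l (-0.42). Neither gene on the ribosome biogenesis list was called. Of the genes of that class off the list named above, Utp18 rose (0.27, adjusted p = 0.0284), while Urb2 (-0.33) and Mdn1 (-0.07) were not called. Nsun2 (0.08), Eif3b (-0.03) and Nomo1 (-0.04) were not called at 10000 nM. Dusp6 fell, at 42.8, 44.6 and 42.1 RPM at 10000 nM, against 86.1 and 70.6 RPM at 0 nM (-0.84, SE 0.119, adjusted p = 4.35e-05), while in CD4 cells it was among the 12 genes with the largest rise. Irf8 was at 65.3, 67.1 and 69.0 RPM at 10000 nM, against 16.5 and 148 RPM at 0 nM, the higher one being library 2 with the high B cell markers (0.42, adjusted p = 0.603). Cd200 was not called (0.01).

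**Figure D5:**
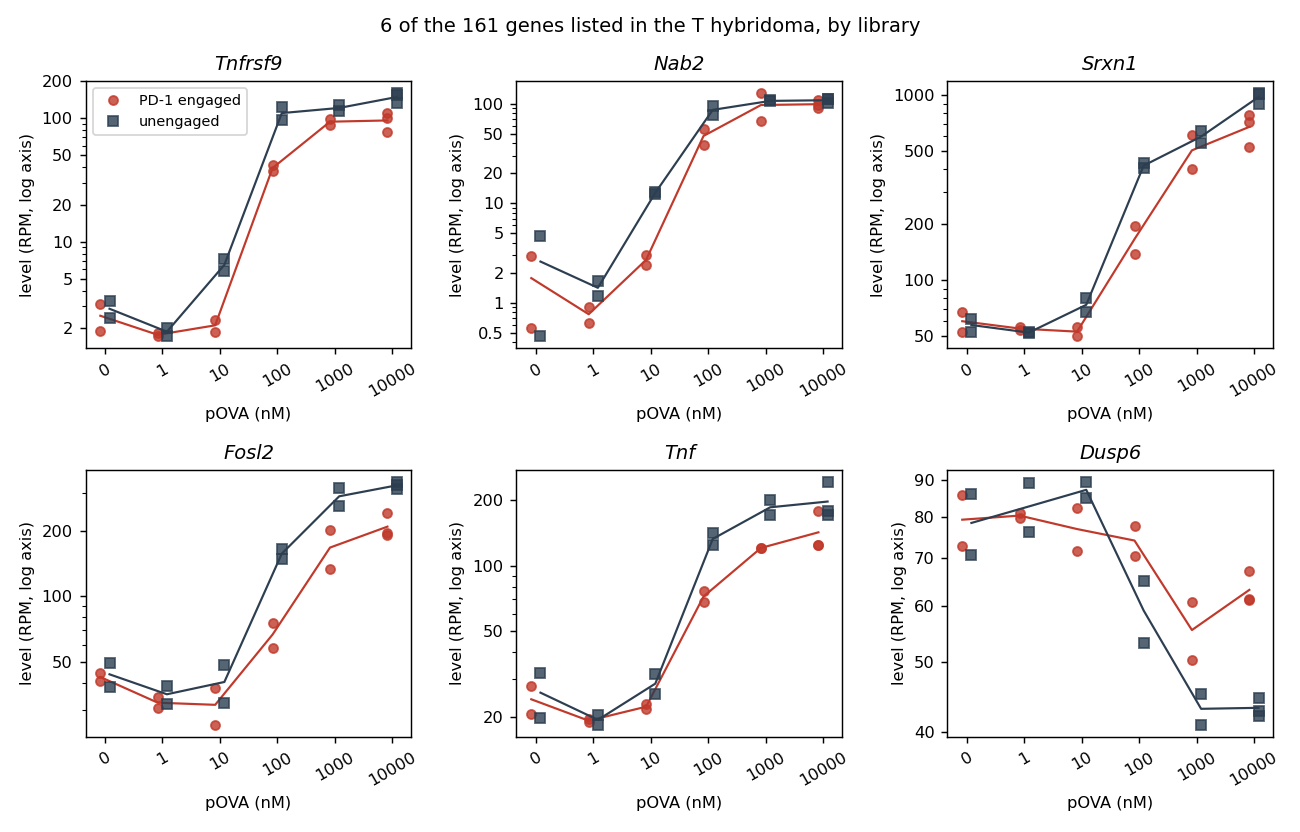
Level of 6 genes in each hybridoma library (RPM, log axis) by dose of pOVA (nM), red circles with and dark squares without PD-1 engagement, lines through the means of 2 or 3 libraries. At 100 nM the engaged libraries of Tnfrsf9 are at 37.5 and 41.7 RPM, against 124 and 96.6 RPM without engagement, and for Dusp6 the engaged libraries at 10000 nM, at 61.2, 67.2 and 61.0 RPM, lie above the unengaged ones.

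Averaged over the stimulated doses in the hybridoma, PD-1 engagement raised none of the 161 genes by adjusted p, against 0.0594% of all genes. At an unadjusted p under 0.05 (limma) it raised 1, against 1.54% of all genes. Engagement lowered 10 of 161 genes (limma, adjusted p under 0.05), against 0.872% of all genes and 2.99% of the other induced genes. They were Tnfrsf9 (log2 difference -0.75, SE 0.0821, adjusted p = 3.96e-05), Fosl2 (-0.63), the calcium channel gene Orai1 (-0.57), Srxn1 (-0.51), Dusp4 (-0.48), Tnf (-0.46), Tnfsf11 (-0.46), Plk3 (-0.41), the histone demethylase gene Kdm2b (-0.37) and Nfkbid (-0.34). The fit behind these calls held no block. In this line, libraries of the same dose and number deviated together, though the sample labels do not state such pairs. With the pairs as a block 37 of 161 genes were lower and 1 higher, against 4.52 and 1.99% of all genes. Dusp6 stood at 0.20 (adjusted p = 0.157), the opposite sign, and at 10000 nM it was the 1 gene of the 161 called higher with engagement (0.54, adjusted p = 0.0252), against 0.0693% of all genes.

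Most calls at single doses fell at 100 nM. Tnfrsf9 was at 37.5 and 41.7 RPM in engaged cells at 100 nM, against 124 and 96.6 RPM in unengaged cells (log2 difference -1.45), and at 100, 111 and 77.6 RPM in engaged cells at 10000 nM, against 155, 160 and 132 RPM in unengaged cells. Srxn1 was at 138 and 195 RPM in engaged cells at 100 nM, against 405 and 427 RPM in unengaged cells (-1.33). Fosl2 was at 58.1 and 75.5 RPM in engaged cells at 100 nM, against 149 and 166 RPM in unengaged cells (-1.23). These 3 genes and Nfkbid (-0.87) were the 4 called at 100 nM (2.48%), against 0.485% of all genes and 2.28% of the other induced genes. At 10 nM 1 was called lower (Tnfrsf9), at 1000 nM none and at 10000 nM none. The shares at these doses were 0.0396, 0.0693 and 0.337% over all genes and 0.142, 0.427 and 1.99% over the other induced genes. At an unadjusted p under 0.05 (limma) 15 were lower and 3 higher at 1000 nM, against 1.83 and 2.89% of all genes, and 15 were lower and 2 higher at 10000 nM, against 2.03 and 1.6%. With pairs as a block 4 genes were lower at 10 nM, against 0.139% of all genes. At 100 nM 35 were lower and 1 higher, against 3.76 and 0.456% of all genes. At 1000 nM 16 were lower and 9 higher, against 2.02 and 5.32%, and at 10000 nM 16 were lower and 1 higher, against 1.6 and 0.921%.

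The change of the PD-1 difference between 100 and 10000 nM was tested directly. Its median was -0.15 over the 161 genes, lower at 100 nM, -0.09 over the other induced genes and -0.05 over all genes. No gene of the 161 was called by limma, edgeR or DESeq2, and 9 of 161 had an unadjusted p under 0.05, against 170 of all 10094 genes. With pairs as a block 7 were called, against 0.436% of all genes, each lower at 100 nM: Cd274 (-0.81), Tnfrsf9 (-0.81), Srxn1 (-0.78), Mmd (-0.65), Fosl2 (-0.60), Pdcd1 (-0.60) and Nfkbid (-0.58). The hybridoma received peptide and the CD4 cells antibody, so their doses are not matched and no dose of one is set against a dose of the other.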

How the data were processed

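Capped RNA 5′ ends were counted in 48 libraries, 22 of primary CD4+ T cells and 26 of the DO11.10 hybridoma. The deposited tables give RPM per tag cluster and library, which the authors scaled to the library total; the tools listed in the submitters' processing notes are HISAT2 2.0.5 and BWA 0.7.12, with build mm9. What each tool did, how clusters were called and whether coordinates count from 0 or 1 are not given in the sources used here. Values were whole tags within 0.1 tag for 100% of CD4 and 99.8 to 100% of hybridoma values, so library totals could be recovered. Clusters with a single symbol were summed per symbol; clusters that carry several are listed with no symbol and were left out. No library was a copy of another.

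Each cell system had its own fit in R 4.3.3 with limma 3.58.1 (trend option), on RPM plus 1 as log2 values. It held a mean for every group and 1 spread estimated over all libraries of the system. A gene was tested if 2 or more libraries reached 1 RPM, and two-sided p-values were adjusted over all of them by the Benjamini-Hochberg method, with a call at an adjusted p under 0.05. Fold changes on this scale understate those of low genes. The fit was tested on simulated data. Alternatives were edgeR 4.0.16 and DESeq2 1.42.0 on the recovered tags, other pseudocounts and filters, quantile normalization, blocks and covariates. Inhibition, marker sums and motif matches were computed with pandas 2.3.3.

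Hybridoma libraries that share a dose and a number, 1 engaged and 1 unengaged, deviated together from their group means. The correlation was 0.279 to 0.611 over the pairs, highest at 0 nM, where both libraries of number 2 had high B cell markers. The main fit held no block, and the numbers paired the samples only where a block of pairs is named. The sample labels do not state such pairs. The genes, the lists and the rule for the named genes were chosen with earlier results of these data known. That rule names the 10 lowest and 5 highest differences at 1000 ng/ml, the 12 largest rises, genes on role lists and the 5 largest rises in the hybridoma, without predicted genes. RefSeq promoter windows (GRCm38.p6) were matched by symbol.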

Additional observations from a re-analysis of the deposited data

How the results depend on the processing

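Of the 173 genes, 86 were lower with engagement at 1000 ng/ml in CD4 cells. The number was 43 with quantile normalization (42 shared) and 43 to 59 leaving out 1 library of this comparison, lowest without unengaged library 2. Less the difference at 0 ng/ml, chosen after seeing the data, it was 0, and Bcl2l1 (0.11), Cd274 (0.0302), Kdm2b (0.0531) and Pdcd1 (0.20) changed sign. The number higher, 0, was 1 with quantile normalization and 1 with edgeR. The number higher at 100 ng/ml under engagement, 128, was 76 with the B cell marker covariate, also chosen after seeing the data. The 28 genes higher at 100 nM in the hybridoma were 18 to 25 leaving out 1 library, and Cd200 at 10000 nM ranged from -1.26 without unengaged library 1 at 0 nM to 1.29 without library 2. The 10 lower with engagement in the hybridoma were 16 with DESeq2 and 16 with the B cell markers in the fit. The cause of these shifts was not tested.

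With the pairs of the same dose and number as a replicate block, the 10 lower in the hybridoma became 37, and the genes whose PD-1 difference changed between 100 and 10000 nM, 0 without it, became 7. In CD4 cells the correlation was -0.0526 to 0.355, and the numbers were not taken to pair the samples. It was 0.355 at 1000 ng/ml, within the hybridoma's range of 0.279 to 0.611, so pairing at that dose is not settled. In CD4 cells the block gave 98 lower at 1000 ng/ml with the pairs and 104 with the number as a factor. The counts at 1000 and 10000 ng/ml under engagement, at 10000 against 100 ng/ml and at 10000 nM stayed within 1.5 times of their values under each alternative run. Adding clusters with several symbols was not run, since they carry no symbols. The smallest total, 4.42 M tags, was that of engaged CD4 library 1 at 100 ng/ml. Counting error is largest at small totals and for genes near 1 RPM, such as Srgap3 and Tacc2 at 0 ng/ml.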
